A study of Mus musculus with 6 samples.

Results

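The genes Gas5, Snhg1, Snhg3, Snhg5, Snhg6, Snhg8 and Snhg12, the hosts of small nucleolar RNAs, were taken by symbol from the RNA-seq count tables of mouse KMWT1 glioma cells. All 7 of 7 had a row among the 24982 gene symbols of each table. KMWT1 is a mouse glioma cell line, grown in medium with fetal bovine serum. Samples 4, 5 and 6 had been transfected with an siRNA pool against YY1, and samples 1, 2 and 3 with a control siRNA. All 6 were taken 48 hours after transfection. Nothing in the labels says whether replicate samples were grown as separate cultures. The p-values therefore reflect only how far these samples vary, and that variation may be technical. The question was whether depletion of YY1, a DNA-binding zinc finger protein able to raise or lower transcription, was accompanied by a change in the RNA of these hosts.

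A small nucleolar RNA host gene carries, in its introns, short RNAs that guide chemical modification or cleavage of ribosomal RNA. After splicing, the introns are trimmed to the small nucleolar RNA, and the joined exons are left as a long noncoding RNA. Several of these spliced RNAs begin with a cytosine followed by pyrimidines, the 5′ terminal oligopyrimidine start (TOP) that they share with messenger RNAs of ribosomal proteins and translation factors. Such spliced host RNAs are known to be engaged by ribosomes and removed by nonsense-mediated decay, so their level in a cell depends on translation as well as on transcription. Box C/D RNAs guide 2′-O-methylation and box H/ACA RNAs guide pseudouridylation.

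The starts of the genes are shown first, because several such hosts are known to begin with a TOP start. A promoter entry of RefSeq (GRCm38.p6, the mm10 coordinates) was matched by symbol for 6 of the 7 genes, all but Snhg6. Each line gives 40 bases before and 30 bases after the annotated start, 5′ to 3′ on the gene's strand. Capitals mark TATA between 40 and 16 bases before the start and the nearest cytosine that is followed by at least 4 pyrimidines within 20 bases of the start. Gas5 had 2 RefSeq starts, and the downstream one is shown; the other had neither pattern.
Gas5: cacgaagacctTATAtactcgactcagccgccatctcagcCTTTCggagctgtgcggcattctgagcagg
Snhg1: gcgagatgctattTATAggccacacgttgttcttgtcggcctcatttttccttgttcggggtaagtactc
Snhg3: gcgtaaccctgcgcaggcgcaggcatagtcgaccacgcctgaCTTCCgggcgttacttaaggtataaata
Snhg5: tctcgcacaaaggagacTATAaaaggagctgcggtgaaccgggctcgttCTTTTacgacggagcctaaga
Snhg8: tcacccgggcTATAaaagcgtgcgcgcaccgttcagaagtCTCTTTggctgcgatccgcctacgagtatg
Snhg12: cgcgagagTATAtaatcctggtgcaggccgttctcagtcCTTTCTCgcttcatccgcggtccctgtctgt
These windows lie on the plus strand at chr1:161035126-161035195 for Gas5, chr19:8723447-8723516 for Snhg1 and chr4:132308638-132308707 for Snhg12. They lie on the minus strand at chr4:132353657-132353726 for Snhg3, chr9:88522868-88522937 for Snhg5 and chr3:123508307-123508376 for Snhg8. TATA stood in that window in 5 of the 6 genes, all but Snhg3, against 5.91% of 32851 RefSeq promoters. The Snhg3 line ends in tataaata, which lies after the annotated start, outside that window, and is not marked. The pyrimidine run began 1 base before, at or 1 base after the annotated start in Gas5, Snhg8 and Snhg12, against 6.32% of promoters. Within 20 bases of the start it was present in all but Snhg1, but there 48.7% of promoters had one. The stretch tttttcctt after the annotated start of Snhg1 holds no cytosine followed by 4 pyrimidines, so it is not marked. Both patterns were searched after the sequences had been read. The long YY1 motif AANATGGCG was on neither strand of the 300 bases of any of the 6 genes, and 2.38% of promoters held it. Its core ATGGCG, which the long motif contains, was present in Gas5 and in Snhg12, against 8.93% of promoters on either strand. A match is a stretch of letters, and binding was not measured here.

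The small RNAs inside the hosts had very few reads, so the tables give the level of the host genes and hardly that of the small nucleolar RNAs. The annotation (GENCODE M21, GRCm38) places 27 genes of its class snoRNA inside the 7 hosts on the same strand, 9 of them in Gas5 (1 with the microRNA symbol Mir5117), 8 in Snhg1 and 4 in Snhg12. Of the 27, 8 had a row in the count tables. Printed next are 4 of the 8, 1 each from Gas5, Snhg6, Snhg12 and Snhg8. Capitals mark the C box near the 5′ end and the D box near the 3′ end of the first 3, and the ACA near the 3′ end of Snora24.
Snord47: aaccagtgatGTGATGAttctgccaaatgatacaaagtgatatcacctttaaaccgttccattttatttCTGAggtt
Snord87: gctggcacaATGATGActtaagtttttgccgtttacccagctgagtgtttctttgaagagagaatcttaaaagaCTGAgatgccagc
Snord99: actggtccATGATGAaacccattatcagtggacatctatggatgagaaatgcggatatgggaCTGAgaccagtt
Snora24: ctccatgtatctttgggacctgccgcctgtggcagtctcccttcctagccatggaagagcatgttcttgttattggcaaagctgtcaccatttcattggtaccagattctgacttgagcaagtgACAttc
Snord47 lies on the plus strand at chr1:161038082-161038158, Snord87 on the minus strand at chr1:9942463-9942549, Snord99 on the plus strand at chr4:132310691-132310764 and Snora24 on the minus strand at chr3:123507937-123508066. Snord47 had 10, 9 and 6 counts in YY1 siRNA samples 4, 5 and 6, against 7, 8 and 10 in control siRNA samples 1, 2 and 3. Snord87 had 7, 7 and 0 counts in YY1 siRNA samples, against 5, 3 and 5 in control siRNA samples. Snora24 had 0 counts in all 6 samples, which allows up to 3 counts, or 0.144 to 0.196 CPM by library (CPM, counts scaled to library size after TMM normalisation). The groups overlapped for Snord47 and Snord87. Over the 8 rows together there were 56, 68 and 55 counts in YY1 siRNA samples and 57, 43 and 66 in control siRNA samples. Only Snord22 of Snhg1 (total 106 counts) and Snora61 of Snhg12 (total 75) passed the filter on low counts, and neither passed the test (edgeR adjusted p 0.769 and 0.855). The next largest totals were 50 for Snord47 and 46 for Snora16a of Snhg12.

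Reads in genes numbered 15738457 to 19210104 in YY1 siRNA samples and 18680762 to 20644057 in control siRNA samples. Sample 6 had the fewest and is the only one whose table is not marked as combined. On the first principal component of all tested genes, with 50.3% of the variance, sample 6 stood at 21.2 and the other 5 between -12.3 and 2.94. Samples within a group varied beyond counting noise, with a chi-square of 3.06 to 32.2 for each degree of freedom. Yy1 was lower in YY1 siRNA samples, at 79.2 ± 1.86 CPM against 127 ± 0.826 CPM in control siRNA samples (SD, n = 3; log2 fold change -0.68, SE 0.064, edgeR adjusted p 0.00154). The reduction of Yy1 RNA was thus partial, and YY1 protein was not measured here. Of the glioma markers, Sox2, Nes, Vim, Cd44, Egfr and Pdgfra were at 10 CPM or more and Olig2 and Prom1 were at 0 counts. Of the astrocyte markers, 4 of 6 were under 1 CPM, Gfap among them. Most markers of neurons (6 of 7), oligodendrocytes (5 of 6), microglia and macrophages (6 of 7) and endothelium (4 of 6) were under 1 CPM, and 2 of 7 for fibroblasts and pericytes. The fibroblast and pericyte markers summed to 806 to 1026 CPM in YY1 siRNA samples and 955 to 1115 CPM in control siRNA samples, most of it Col3a1 (803 CPM on average in YY1 siRNA samples, 875 CPM in control siRNA samples). Of these 7 markers, 5 were tested and 0 passed the edgeR test. Of the 5, 2 had fitted values above 0 and 3 below 0, with a median of -0.12. The 2 were Rgs5 (log2 fold change 0.67, edgeR unadjusted p 0.0087) and Dcn (0.30, edgeR unadjusted p 0.012). Both had higher values in all 3 YY1 siRNA samples, as did 7.36% of all genes. At an unadjusted p under 0.05, 5.38% of all genes were higher. Rgs5 was low, at 1.94 CPM in YY1 siRNA samples and 1.22 CPM in control siRNA samples. The part of these markers in the values of the hosts was not tested. Each value is a share of a bulk library, so fewer cells holding an RNA and less of it per cell cannot be told apart.

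No host gene passed the test for a difference between YY1 siRNA and control siRNA, while all 7 were highest in 1 library, YY1 siRNA sample 6. The edgeR quasi-likelihood test with Benjamini-Hochberg adjustment called 0 of the 7 at an adjusted p under 0.05, and 1 of 12148 genes tested (0.00823%), which was Yy1. DESeq2 and limma-voom also called 0 of the 7. At an unadjusted p under 0.05, 1 of the 7 was higher, Snhg3, and 0 were lower, against 5.38% of all genes higher and 5.46% lower. In either direction it was 10.8% of all genes, the share to hold beside the lists below. All 7 passed the filter on low counts. The fitted log2 fold change lay above 0 for 6 of 7, with a median of 0.24, against 50.2% of all genes and a median of 0.00070. Sample 6 had the highest value of 7 of 7 hosts, against 27.1% of all genes tested. It also had the lowest value of 3587 of the 12148 genes tested, more than any other library. Without sample 6 the median of the 7 was 0.070. A lower value was bound to follow, because sample 6 was the highest for every host. The median of the 7 was 0.36 without sample 5 and 0.29 without sample 4.

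**Figure D1:**
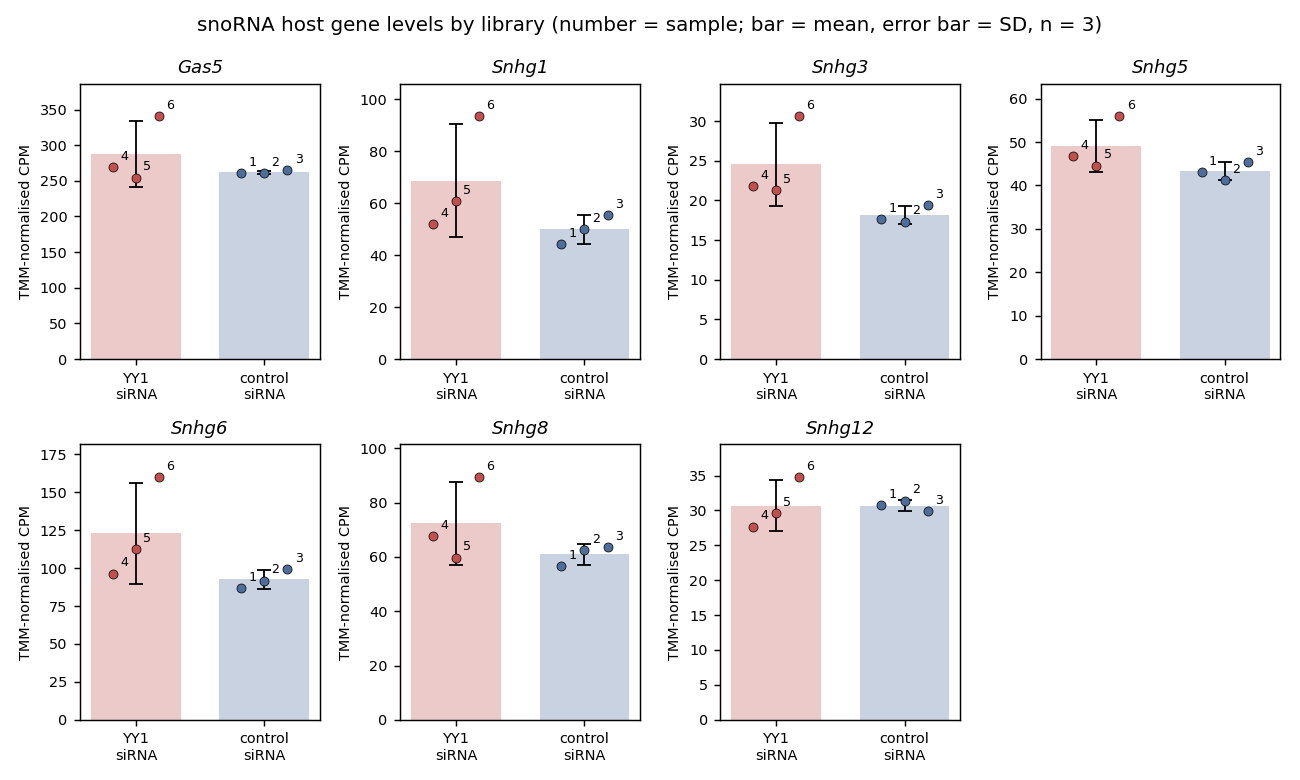
TMM-normalised CPM (vertical axes, linear, from 0) of the 7 host genes in YY1 siRNA samples (red) and control siRNA samples (blue). Points are libraries with their sample numbers, bars are means and error bars are SD (n = 3); in each panel sample 6 is the highest point.

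Gas5, whose spliced RNA accumulates when growth stops and which carries box C/D RNAs, was the most counted of the 7. Its locus is chr1:161034422-161038539, plus strand (mm10, ENSMUSG00000053332.13). Gas5 had 269, 255 and 341 CPM in YY1 siRNA samples 4, 5 and 6, against 261, 261 and 265 CPM in control siRNA samples 1, 2 and 3. The control siRNA samples lay within 4 CPM of each other, sample 5 lay below them, and samples 4 and 6 above. The means were 288 ± 46.1 CPM in YY1 siRNA samples and 262 ± 2.16 CPM in control siRNA samples (SD, n = 3). The log2 fold change was 0.13 (95% interval -0.082 to 0.35, edgeR adjusted p 0.608). Without sample 6 it was -0.0093 (95% interval -0.15 to 0.13), so that the direction turned.

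Snhg1, on chromosome 19 from 8723475 to 8726443 (plus strand, ENSMUSG00000108414.1), is the host of the U22 RNA, Snord22, and of other box C/D RNAs. Snhg1 had 51.9, 60.7 and 93.4 CPM in YY1 siRNA samples 4, 5 and 6, against 44.2, 49.9 and 55.4 CPM in control siRNA samples 1, 2 and 3. Samples 5 and 6 lay above every control siRNA sample, and sample 4 lay among them. The means were 68.7 ± 21.9 CPM in YY1 siRNA samples and 49.8 ± 5.62 CPM in control siRNA samples (SD, n = 3). The log2 fold change of 0.46 (95% interval -0.040 to 0.96) was the largest of the 7, and its interval also was the widest (edgeR adjusted p 0.482). Without sample 6 it was 0.17 (95% interval -0.044 to 0.38).

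Snhg6, the host of the box C/D RNA Snord87, followed Snhg1 closely. It lies on the minus strand of chromosome 1 from 9941959 to 9944118 (ENSMUSG00000098234.7). Snhg6 had 96.4, 113 and 160 CPM in YY1 siRNA samples 4, 5 and 6, against 86.9, 91.8 and 99.5 CPM in control siRNA samples 1, 2 and 3. As with Snhg1, samples 5 and 6 were above the control siRNA samples and sample 4 was within their range. The means were 123 ± 33.2 CPM in YY1 siRNA samples and 92.7 ± 6.38 CPM in control siRNA samples (SD, n = 3). The log2 fold change was 0.41 (95% interval -0.0073 to 0.82, edgeR adjusted p 0.468), and 0.16 (95% interval -0.012 to 0.34) without sample 6. Mcmdc2 on the opposite strand shares 127 exonic bases with Snhg6, and its row held 0 counts in every sample.

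Snhg3, the host of the U17 RNAs Snora73a and Snora73b, was the only one of the 7 whose groups did not overlap. U17 is a box H/ACA RNA known for its part in cleavage of the ribosomal RNA precursor. Snhg3 lies on the minus strand of chromosome 4 from 132348014 to 132353686 (ENSMUSG00000085241.7). Snhg3 had 21.8, 21.3 and 30.6 CPM in YY1 siRNA samples 4, 5 and 6, against 17.7, 17.3 and 19.4 CPM in control siRNA samples 1, 2 and 3. All 3 YY1 siRNA samples were above all 3 control siRNA samples, as they were for 7.36% of all genes tested. The exact permutation p was 0.1, two-sided, the smallest that 3 against 3 allows. The means were 24.6 ± 5.25 CPM in YY1 siRNA samples and 18.1 ± 1.12 CPM in control siRNA samples (SD, n = 3). The log2 fold change was 0.43 (95% interval 0.14 to 0.72), with an unadjusted p of 0.0081 and an edgeR adjusted p of 0.306, which did not pass. Without sample 6 it was 0.24 (95% interval 0.044 to 0.44, edgeR adjusted p 0.508).

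The counts of Snhg3 are uncertain because other genes overlap it. It shares 135 exonic bases with Rcc1 on the same strand and 705 with Gm17300 on the opposite strand, which had no row in the tables. The sources used here do not state how strand was handled. Rcc1, a chromatin protein gene named here because of the overlap, had 33.1, 31.9 and 28.7 CPM in YY1 siRNA samples 4, 5 and 6, against 30.3, 31.6 and 34.4 CPM in control siRNA samples 1, 2 and 3. Sample 6, highest for Snhg3, was lowest for Rcc1.

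Snhg5, Snhg8 and Snhg12 had smaller fitted differences. Snhg5, the host of the U50 RNAs Snord50a and Snord50b, lies on the minus strand of chromosome 9 from 88521050 to 88522929 (ENSMUSG00000097195.9). Snhg5 had 46.7, 44.6 and 56.0 CPM in YY1 siRNA samples 4, 5 and 6, against 43.1, 41.3 and 45.5 CPM in control siRNA samples 1, 2 and 3. Sample 5 lay among the control siRNA samples and the other two above them. The means were 49.1 ± 6.06 CPM in YY1 siRNA samples and 43.3 ± 2.10 CPM in control siRNA samples (SD, n = 3), and the log2 fold change was 0.18 (95% interval -0.017 to 0.38, edgeR adjusted p 0.485).

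Snhg8, the host of the box H/ACA RNA Snora24, lies on the minus strand of chromosome 3 from 123507552 to 123508404 (ENSMUSG00000104960.1). Snhg8 had 67.8, 59.8 and 89.5 CPM in YY1 siRNA samples 4, 5 and 6, against 56.7, 62.6 and 63.7 CPM in control siRNA samples 1, 2 and 3. Sample 5 was below 2 of the control siRNA samples. The log2 fold change was 0.24 (95% interval -0.060 to 0.55, edgeR adjusted p 0.520), with means of 72.4 ± 15.4 CPM in YY1 siRNA samples and 61.0 ± 3.79 CPM in control siRNA samples (SD, n = 3). Without sample 6 it was 0.059 for Snhg8 and 0.070 for Snhg5.

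Snhg12, which carries both kinds of small nucleolar RNA, was the only one of the 7 with a fitted value below 0, and that value was close to 0. Its locus is chr4:132308623-132311024, plus strand (ENSMUSG00000086290.9). Snhg12 had 27.7, 29.6 and 34.8 CPM in YY1 siRNA samples 4, 5 and 6, against 30.7, 31.4 and 29.95 CPM in control siRNA samples 1, 2 and 3. Samples 4 and 5 were below all control siRNA samples and sample 6 above them. The means were 30.7 ± 3.68 CPM in YY1 siRNA samples and 30.7 ± 0.730 CPM in control siRNA samples (SD, n = 3), with a log2 fold change of -0.0038 (95% interval -0.20 to 0.19, edgeR adjusted p 0.993). Without sample 6 it was -0.11 (95% interval -0.28 to 0.063).

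**Figure D2:**
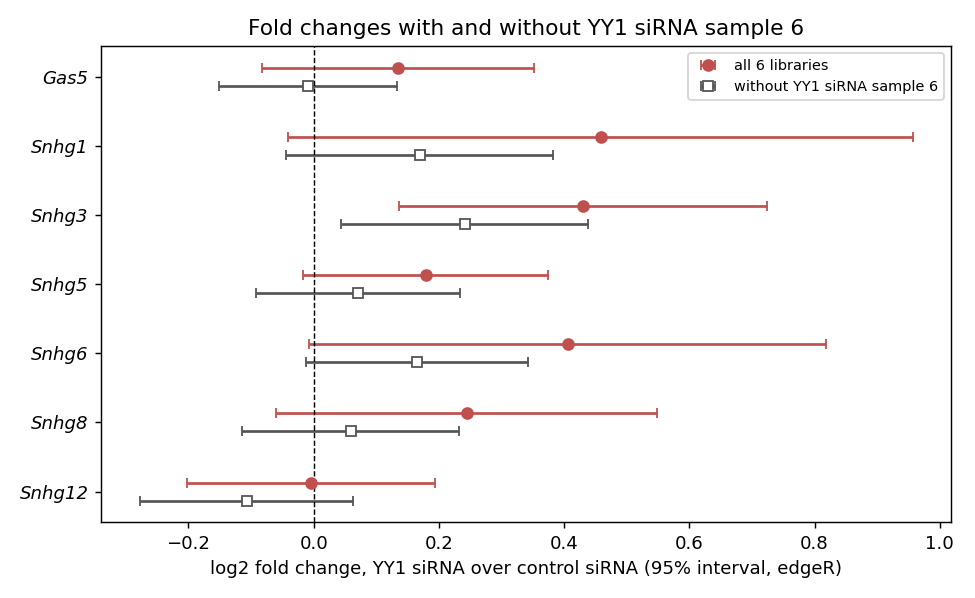
Log2 fold change of each host gene, YY1 siRNA over control siRNA, with its 95% interval from edgeR (horizontal axis), with all 6 libraries (red circles) and without YY1 siRNA sample 6 (open squares). All 7 values are lower without sample 6, which follows from its being the highest library for each host. The interval of Snhg3 alone lies above 0 in both fits.

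The 95% intervals bound what these samples leave possible. For Gas5 the level in YY1 siRNA samples was 110% of that in control siRNA samples (95% interval 94.5% to 128%), and for Snhg12 99.7% (86.9% to 114%). For Snhg1 the interval reached from 97.2% to 194%, and for Snhg6 from 99.5% to 176%. At the lowest count of each host, counting error came to 1.44% for Gas5 (4792 counts) and to 5.47% for Snhg3 (334 counts), the extremes of the 7. The coefficient of variation was 12% to 31.9% over YY1 siRNA samples and 0.824% to 11.3% over control siRNA samples. In every one of the 7 it was larger in YY1 siRNA samples, the group that holds sample 6, which was highest for all 7. How many of all genes tested had this order was not counted. Over control siRNA samples the coefficient of variation was below the counting error for Gas5 (0.824%) and for Snhg12 (2.38%, against a counting error of 3.96% to 4.35%).

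Sample 6 held more RNA of all 7 hosts relative to the other genes. Together the hosts had 581, 583 and 805 CPM in YY1 siRNA samples 4, 5 and 6, against 540, 555 and 578 CPM in control siRNA samples 1, 2 and 3. Samples 4 and 5 thus lay just above the highest control siRNA sample. Against the control mean, sample 6 was 1.87-fold higher for Snhg1, 1.73-fold for Snhg6 and 1.69-fold for Snhg3. It was 1.47-fold higher for Snhg8, 1.30-fold for Gas5, 1.29-fold for Snhg5 and 1.13-fold for Snhg12. Only 0.280% of all genes tested had a larger log2 difference in sample 6 than Snhg1, and 24.6% had a larger one than Snhg12. The share of Gas5 in the counts of the 7 was 46.3%, 43.6% and 42.3% in YY1 siRNA samples 4, 5 and 6, against 48.3%, 47.0% and 45.8% in control siRNA samples 1, 2 and 3. Sample 6 had the lowest depth. With all libraries thinned to its depth, the log2 fold change was 0.45 for Snhg1 (0.46 unthinned), 0.45 for Snhg3 (0.43) and 0.39 for Snhg6 (0.41). It is also the one library whose table is not marked as combined, and the part of that in these values was not tested.

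**Figure D3:**
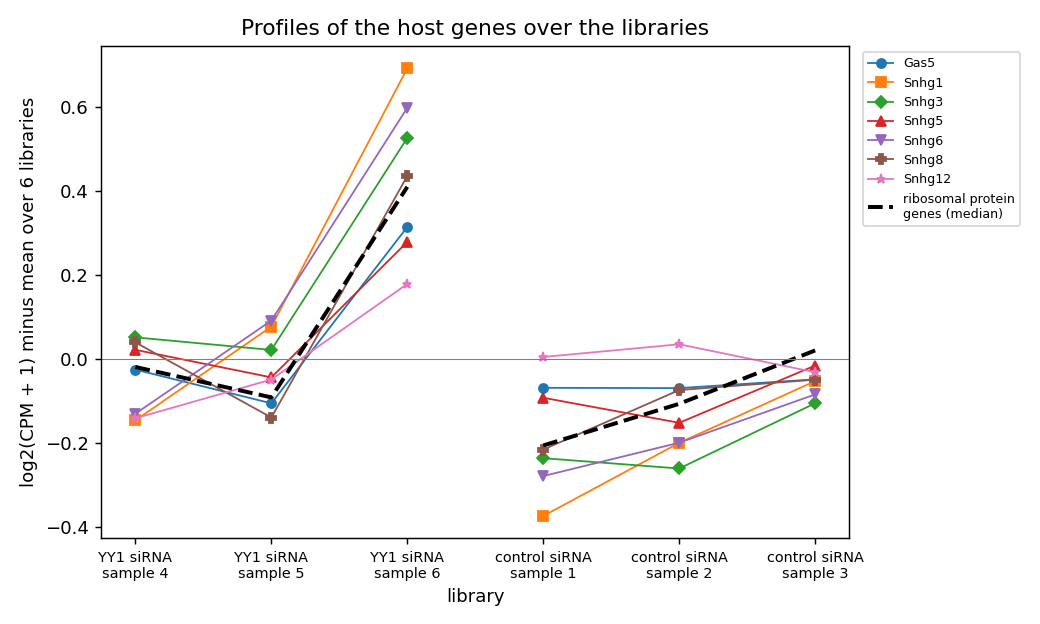
Level of each host gene by library, as log2(CPM + 1) minus its mean over the 6 libraries (vertical axis), with the median of 77 ribosomal protein genes as a dashed line; lines only join the points of a gene within a group, whose samples have no order. Every line has its highest point at YY1 siRNA sample 6, and the ribosomal protein median is 0.41 there.

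The 7 hosts had similar profiles over the libraries, with Snhg12 the least like the others. As a description over 6 libraries, which all hosts share and which sample 6 sets apart, Pearson's r of log2(CPM + 1) between 2 hosts ranged from 0.51 to 1.00. The closest pair was Snhg1 and Snhg6 (r = 0.995), followed by Snhg3 and Snhg5 (r = 0.974) and by Gas5 and Snhg8 (r = 0.960). The 6 pairs with Snhg12 had the lowest values, 0.51 to 0.77. Of the 12141 other genes, the 5 most like the mean profile of the hosts were Vps35, Taf1d, Ccdc58, Rps15a-ps6 and Mcts1 (r 0.997 to 0.999). A high r is not rare here, since 946 of the 12141 genes had an r above 0.9. Taf1d, a factor of RNA polymerase I transcription, had 63.6 ± 12.7 CPM in YY1 siRNA samples and 53.1 ± 3.05 CPM in control siRNA samples (SD, n = 3; edgeR adjusted p 0.476). Rps15a-ps6 is a pseudogene, and its counts may be reads of its parent gene.

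Ribosomal protein genes, whose messenger RNAs are the best known carriers of the TOP start, also had their highest median in sample 6 and their lowest in control siRNA sample 1. Of 77 tested, 70 (90.9%) were highest in sample 6, against 27.1% of all genes. Control siRNA sample 1 was lowest for 2154 of all 12148 genes tested, and for 57 of these 77. Their median level was -0.019, -0.091 and 0.41 in YY1 siRNA samples 4, 5 and 6, against -0.21, -0.11 and 0.021 in control siRNA samples 1, 2 and 3, in log2 units from the mean of the 6 libraries. The hosts' median was -0.025, -0.043 and 0.44 in YY1 siRNA samples, against -0.21, -0.15 and -0.049 in control siRNA samples. Of the 77, 0 passed the edgeR test over all genes. At an unadjusted edgeR p under 0.05 there were 0, against 10.8% of all genes in either direction. Of the fitted values 74 were above 0, against 50.2% of all genes, with a median of 0.22. Rpl13a, itself a host of box C/D RNAs, had 2413 ± 740 CPM in YY1 siRNA samples and 1697 ± 339 CPM in control siRNA samples (SD, n = 3; edgeR adjusted p 0.472). Without sample 6 the median of the ribosomal protein genes was 0.036.

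Other TOP messenger RNAs, of translation factors and related proteins, were less uniform. Of 15 tested, 9 were highest in sample 6 and 4 were lowest there. Of all 12148 genes tested, 3294 were highest in sample 6 and 3587 were lowest there. None passed the edgeR test and 0 reached an unadjusted p of 0.05, with a median log2 fold change of 0.041. Eef1b2, a subunit of the elongation factor that reloads eEF1A, had 1243 ± 313 CPM in YY1 siRNA samples and 981 ± 124 CPM in control siRNA samples (SD, n = 3; edgeR adjusted p 0.494). Among 9 genes of the mTOR pathway and LARP1, which control TOP messenger RNAs, 0 passed and 0 had an unadjusted p under 0.05 (median -0.058). Tsc1, which restrains mTOR, had 46.5 ± 4.65 CPM in YY1 siRNA samples and 41.8 ± 0.398 CPM in control siRNA samples (SD, n = 3; edgeR adjusted p 0.498).

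**Figure D4:**
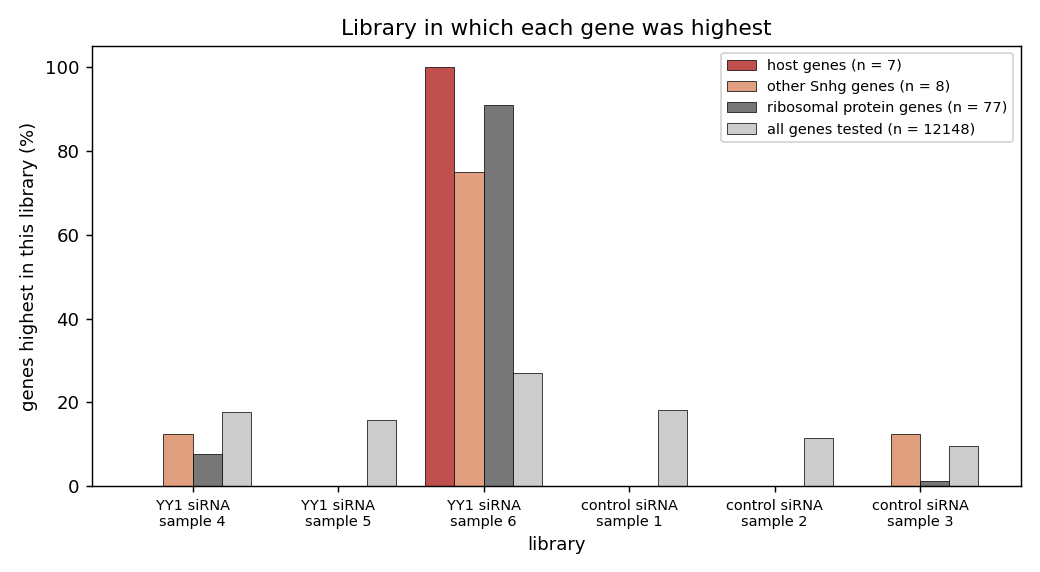
Share of genes (vertical axis, percent) that had their highest CPM in each library, for the 7 host genes, 8 other Snhg genes, 77 ribosomal protein genes and all 12148 genes tested. YY1 siRNA sample 6 holds 100% of the hosts, 75.0% of the other Snhg genes, 90.9% of the ribosomal protein genes and 27.1% of all genes.

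None of the Snhg genes outside the 7 passed the test. Of 11 listed, 10 had a row and 8 passed the filter on low counts, with 0 at an unadjusted p under 0.05. Of the 8 fitted values 7 were above 0, the median was 0.14, and 6 of the 8 were highest in sample 6. Snhg18, with the smallest p of them, had 33.1, 30.1 and 39.4 CPM in YY1 siRNA samples 4, 5 and 6, against 28.0, 30.5 and 30.6 CPM in control siRNA samples 1, 2 and 3 (edgeR adjusted p 0.482). Snhg4 was the only one of the 8 whose groups did not overlap (7.36% of all genes had all 3 YY1 siRNA samples above), at 6.40 ± 0.334 CPM in YY1 siRNA samples and 5.69 ± 0.374 CPM in control siRNA samples (SD, n = 3; edgeR adjusted p 0.595). Without sample 6 the median of these 8 genes was -0.025. Protein-coding hosts of small nucleolar RNAs, 15 in all, had 0 called by edgeR and 0 with an unadjusted p below 0.05. Of the 15, 11 had fitted values above 0, 11 were highest in sample 6 and 3 were lowest there. The list is not separate from the others, since 7 of the 15 are ribosomal protein genes. Rack1 and Eef2 are also in the list of other TOP messenger RNAs, and Nop56 among the core proteins below. Eif4a2, a helicase of translation initiation, had 414 ± 72.8 CPM in YY1 siRNA samples and 358 ± 16.6 CPM in control siRNA samples (SD, n = 3; edgeR adjusted p 0.505).

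The proteins that build and use small nucleolar RNAs had fitted values on both sides of 0. The core proteins, which bind the finished RNAs, had 0 of 8 called and 0 reaching an unadjusted p of 0.05, with a median log2 fold change of -0.032. Their median level in sample 6 was 0.013, against 0.080 in control siRNA sample 3, the highest of the 6. Fbl, the methyltransferase of box C/D particles, had 33.9 ± 3.28 CPM in YY1 siRNA samples and 36.8 ± 1.00 CPM in control siRNA samples (SD, n = 3; edgeR adjusted p 0.603). Of 11 assembly factors, 0 passed and 1 was lower at an unadjusted p under 0.05, against 5.46% of all genes (median -0.063). That gene, Znhit6, which acts in box C/D assembly, had 26.1 ± 1.34 CPM in YY1 siRNA samples and 30.4 ± 1.91 CPM in control siRNA samples (SD, n = 3; edgeR adjusted p 0.388). Its groups and those of Shq1, an H/ACA assembly factor, did not overlap, with all 3 YY1 siRNA samples lower, as for 8.91% of all genes. The median level of the assembly factors was 0.019, -0.088 and -0.12 in YY1 siRNA samples 4, 5 and 6. In control siRNA samples 1, 2 and 3 it was 0.0038, 0.0034 and 0.059, so sample 6 was the lowest. The difference between these lists and the hosts was not tested.

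Genes of nonsense-mediated decay, the pathway that removes spliced host RNAs, had a median fold change near 0, with their lowest level in sample 6. The median level of the factors was 0.0046, 0.039 and -0.099 in YY1 siRNA samples 4, 5 and 6. In control siRNA samples 1, 2 and 3 it was 0.014, 0.024 and -0.025. The part of this in the values of the hosts was not tested. Of 15 factors, 0 passed the edgeR test and 0 had an unadjusted p under 0.05, with 7 fitted values above 0, 8 below and a median of -0.00074. The groups of 2 of the 15 did not overlap, with lower values in YY1 siRNA samples, as for 8.91% of all genes. One was Smg6, the endonuclease of the pathway, at 95.7 ± 3.41 CPM in YY1 siRNA samples and 106 ± 4.84 CPM in control siRNA samples (SD, n = 3; edgeR adjusted p 0.468). The other was Eif4a3, the helicase of the exon junction complex, at 80.2 ± 4.98 CPM in YY1 siRNA samples and 88.2 ± 1.73 CPM in control siRNA samples (SD, n = 3; edgeR adjusted p 0.492). Of 9 protein-coding transcripts known to be cleared by the pathway, 0 passed and 1 was higher at an unadjusted p under 0.05, against 5.38% of all genes. That gene, Atf3, a stress-induced transcription factor, had 22.4 ± 0.783 CPM in YY1 siRNA samples and 19.7 ± 1.03 CPM in control siRNA samples (SD, n = 3; edgeR adjusted p 0.454). The median of these 9 was 0.033.

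Noncoding RNAs that stay in the nucleus ordered the libraries differently in part, though sample 6 was the highest for them too. Of 10 listed, 3 passed the filter, Malat1, Neat1 and Kcnq1ot1, and 0 of the 3 passed the test or had an unadjusted p under 0.05. Their median level was -0.56, 0.35 and 0.46 in YY1 siRNA samples 4, 5 and 6, against -0.099, -0.19 and 0.15 in control siRNA samples 1, 2 and 3. Sample 5 was thus high for these RNAs, while only Snhg1 and Snhg6 among the hosts were higher in sample 5 than in every control siRNA sample and sample 4. Snhg3 was above every control siRNA sample in sample 5, but lower there than in sample 4. Pearson's r of the hosts with the median level of these nuclear RNAs ranged from 0.36 (Snhg8) to 0.72 (Snhg6). With the ribosomal protein median it ranged from 0.66 (Snhg12) to 0.98 (Snhg8). For Snhg12 both values were 0.66. Counts in no gene made up 7.87%, 10.7% and 11.3% of YY1 siRNA samples 4, 5 and 6, against 7.99%, 8.64% and 9.03% of control siRNA samples 1, 2 and 3. With this share as a covariate, the log2 fold changes of Snhg1 and Snhg6 were both 0.14 and that of Snhg3 was 0.29. It was 0.050 for Gas5, 0.11 for Snhg5, 0.14 for Snhg8 and -0.10 for Snhg12, and none of the 7 had an unadjusted p under 0.05. The share was highest in YY1 siRNA samples 5 and 6, so this fit cannot tell it apart from the siRNA or from sample 6.

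Per length of annotated exon, 3 of the hosts had higher levels and 4 had lower ones, an order that rests on the annotation. In CPM per kilobase of annotated exon (RPKM), Snhg6 had 107 ± 29.0 in YY1 siRNA samples and 80.9 ± 5.56 in control siRNA samples (SD, n = 3). Snhg8 followed with 84.8 ± 18.02 RPKM in YY1 siRNA samples and 71.5 ± 4.44 RPKM in control siRNA samples. Gas5, with the most counts of the 7, came next with 76.6 ± 12.3 RPKM in YY1 siRNA samples and 69.8 ± 0.575 RPKM in control siRNA samples. Snhg8 and Gas5 did not differ beyond their spread over samples in either group. Within a sample, Snhg8 was above Gas5 in every YY1 siRNA sample and below it in control siRNA sample 1. The lower 4 were Snhg5 (28.4 ± 3.50 RPKM in YY1 siRNA samples, 25.0 ± 1.21 RPKM in control siRNA samples), Snhg3, Snhg1 and Snhg12. Snhg3 had 24.9 ± 5.33 RPKM in YY1 siRNA samples and 18.4 ± 1.14 RPKM in control siRNA samples. Snhg1 had 23.1 ± 7.38 RPKM in YY1 siRNA samples and 16.8 ± 1.89 RPKM in control siRNA samples, and Snhg12 had 12.8 ± 1.53 RPKM in YY1 siRNA samples and 12.8 ± 0.304 RPKM in control siRNA samples. Over samples, Snhg3 and Snhg1 overlapped in both groups, and Snhg5, Snhg3 and Snhg1 overlapped in YY1 siRNA samples. Within a sample, Snhg5 was above Snhg3 in every YY1 siRNA sample. Snhg3 was above Snhg1 in every control siRNA sample and below it in YY1 siRNA sample 6. These levels depend on the length used, since for Snhg1, Snhg8 and Snhg12 the annotated exons of all transcripts together cover the whole gene. With the longest transcript as the length, Gas5 (103 RPKM in control siRNA samples) stood above Snhg8 (78.6 RPKM), and Snhg12 (19.96 RPKM) above Snhg1 (18.3 RPKM). The longest transcript of Snhg1 has 2728 bases in a gene of 2969 bases, so it too may exceed the spliced RNA.

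The annotation also limits what a count of a host means. Of its transcripts, 20 of 25 for Gas5, 14 of 18 for Snhg1, 3 of 6 for Snhg5 and 1 of 3 for Snhg8 are classed as retained intron, and none for Snhg3, Snhg6 and Snhg12. Each small RNA shown above lies in an intron of at least 1 transcript of its host; Snord47 and Snora24 also lie in an exon of 1 transcript, Snord99 in an exon of 3, and Snord87 in none. A single count per gene does not separate spliced from unspliced host RNA, so neither can be compared here.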

How the data were processed

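RNA-seq was measured in 6 samples of KMWT1 cells. The authors deposited 1 table for each sample, with raw, whole-number counts by gene symbol. Per the submitters' processing notes, STAR 2.6.1a, edgeR 3.30.0 and mm10 were used, with counting program, annotation and strandedness not given in the sources used here. Rows of reads in no gene (7.87% to 11.3%) and ambiguous reads (1.01% to 1.15%) were left out.

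Samples were grouped by title. The test was edgeR 4.0.16 (R 4.3.3; glmQLFTest, two-sided, filterByExpr, TMM, robust), fitted on all 12148 genes kept, with Benjamini-Hochberg adjustment over all of them at 0.05. CPM is TMM-normalised and RPKM divides it by exon length (GENCODE M21; 98.0% of symbols matched). Levels use log2(CPM + 1). Counting intervals and floors (3 counts) cover counting error only. The steps were tested on simulated counts.

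The hosts and all gene lists were chosen with earlier results of these data known. From each list up to 4 genes with the smallest p could be named; for small RNAs, those with the largest counts. The 4 small RNAs printed as sequences, Rcc1, Mcmdc2 and Gm17300 were picked after values were seen, the last 3 for their overlap with a host. Other normalizations, filters, DESeq2 1.42.0, limma-voom (limma 3.58.1) and leaving out each sample were alternatives.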

Additional observations from a re-analysis of the deposited data

Results flagged for a closer look

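Reads that fell in no gene are outside the comparisons of the hosts. They made up 11.3% of the counts in YY1 siRNA sample 6, 10.7% in sample 5 and 7.87% in sample 4, against 7.99%, 8.64% and 9.03% in control siRNA samples 1, 2 and 3. Samples 5 and 6 thus lay above every control siRNA sample. The part of these reads in the values of the hosts was not tested. The fit with this share as a covariate cannot tell the share apart from the siRNA or from sample 6.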

How the results depend on the processing

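None of the 7 hosts passed over all genes under any of the 9 alternatives (lowest adjusted p 0.130, Snhg3) or without any 1 sample (lowest 0.155, Snhg3). No paired analysis was possible because the groups have no replicate number in common. Without each sample in turn, the log2 fold change ranged from -0.0093 to 0.22 for Gas5, with a value below 0 only without YY1 siRNA sample 6, and from -0.11 to 0.072 for Snhg12. For Snhg12 it was also above 0 with RLE size factors (0.0038), a 1 CPM filter (0.0043) and DESeq2 (0.0024). The other 5 stayed above 0: 0.17 to 0.63 for Snhg1, 0.24 to 0.52 for Snhg3, 0.070 to 0.24 for Snhg5, 0.16 to 0.56 for Snhg6 and 0.059 to 0.36 for Snhg8. Hosts with an unadjusted p under 0.05 numbered 0 with the no-gene share as covariate (7.70% of all genes in that fit) and 5 without YY1 siRNA sample 5 (11.7% of all genes). Genes called over the whole table numbered 7 with library size alone, 83 without a filter, 19 with DESeq2, and 1 to 41 without each sample (41 when YY1 siRNA sample 4 was left out, 3 for YY1 siRNA sample 6 and 2 for control siRNA sample 3). Why these values differ, the cause, was not tested.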
